A study of Mus musculus with 96 samples.

Results

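The genes that encode the proteasome were followed in spleen and whole blood of mice with collagen induced arthritis. All genes were taken whose symbol is Psma to Psmg with a number, or Psme1 to Psme4, each by its probe with the highest mean intensity. This gave 45 of the 16593 genes measured, by 67 probes, of which 43 are proteasome subunits, assembly chaperones or activators. The other two, Psmc3ip and Psme3ip1, share only the name: they encode partner proteins of a subunit and of an activator. Psma8, Psmb11, Psmd3, Psmf1, Psmg4 and Psme2b meet the rule but were not analysed here.

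The proteasome is the protease that degrades proteins tagged with ubiquitin. Its 20S core is a barrel of alpha rings, which gate the entry, and beta rings, which hold the catalytic sites. The 19S cap binds ubiquitin, unfolds the substrate with its ATPase ring and feeds it into the core. Interferon induces the catalytic subunits Psmb8, Psmb9 and Psmb10, which replace Psmb5, Psmb6 and Psmb7 to form the immunoproteasome, and the PA28 activator subunits Psme1 and Psme2. Immune cells carry immunoproteasomes at rest, and these shape the peptides shown on MHC class I.

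Total RNA of 48 male mice was hybridised to 96 Illumina bead arrays, 1 of spleen and 1 of blood for each mouse. The mice were of strain C57BL/10.Q/rhd, called wild type below, or C57BL/10.Q/rhd.Ncf1m1J, in which Ncf1, a component of the NADPH oxidase of phagocytes, is mutated. Tissue was taken 15 or 44 days after immunisation, without culture or sorting, so that tissue, strain and day made 8 groups of 12 mice. Of the 12 mice, 6 belonged to an experiment I and 6 to an experiment II, for which RNA was stored and isolated with different kits, and globin transcripts were removed from all samples. The labels give no age, and no unimmunised mice were analysed here. The labels give the mutation in a single strain, so that any other difference carried by that line cannot be told apart from Ncf1.

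Values are log2 intensities, and differences are in log2 units with their standard error. A gene passed the test where limma's moderated test, with experiment as a term, gave an adjusted p under 0.05 by the method of Benjamini and Hochberg over the 16593 genes. Levels per group are given after the shift between the experiments was removed. The level of Ncf1 went with the labels: it lay at 6.04 to 6.75 in mutated and 6.79 to 7.78 in wild type spleens at day 44, while in blood the genotypes overlapped. 5 spleen arrays, all of experiment I, also carried transcripts of the exocrine pancreas. They came from 4 wild type mice and 1 mutated mouse, 3 at day 15 and 2 at day 44. Calls of members in spleen that were lost without them are given both ways, and counts over the lists include them. Blood arrays were not screened, and none was left out. Their summed pancreatic intensity reached 11740 in wild type mice at day 15, against a median of 2797. For genotype in blood at day 15, 14 of 20 pancreatic genes had an unadjusted limma p under 0.05 (median -0.55), and 0 passed the test. The shift between the experiments had a median size of 0.36 in spleen and 0.31 in blood for proteasome genes, against 0.11 and 0.15 over all genes. Of the 45 members 42 lay above the median level of all genes. Shares and medians over all genes, here and below, include the dimmer genes and were not matched for level. In whole tissue, fewer cells of a type and less RNA per cell cannot be told apart.

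Proteasome genes were mostly higher in spleen than in blood of the same mouse. Of the 45 genes, 40 were higher in the spleen, 3 were lower and 2 did not pass the test. Over all genes 62.9% were higher and 14.3% were lower, and the median difference was 0.87 for the proteasome genes and 0.14 for all genes. Genes of like level were not compared, and 42 of the 45 members lay above the median level of all genes. The tissues had been quantile normalised separately, with array medians of 82.2 in spleen and 73.4 in blood. Each value is therefore a difference of positions in separate distributions. Quantile normalisation of all 96 arrays together sets the same distribution for both tissues. With it 29 members were higher and 7 lower, against 68.4% of all genes called in either direction. Psmb9, the inducible counterpart of Psmb6, was 2.68-fold higher in spleen (1.42 ± 0.05, limma adjusted p = 7.52e-28), Psme2 was higher by 1.11 ± 0.05, and Psmb8 by only 0.38 ± 0.07. The constitutive catalytic genes Psmb5, Psmb6 and Psmb7 were higher in spleen by 0.60, 0.87 and 0.84. The smallest p belonged to Psmc3ip, a recombination cofactor that was 4.30-fold higher (2.10 ± 0.05), followed by the alpha ring chaperone gene Psmg2 (1.33 ± 0.04), the ATPase gene Psmc2 (1.2 ± 0.04), the beta ring gene Psmb2 (1.02 ± 0.03) and the chaperone gene Psmg3 (1.14 ± 0.04). Psmc5 and Psmc4 of the ATPase ring, Psma5 of the alpha ring and Psmd13 of the lid were higher by 1.26, 1.17, 1.29 and 1.09. Second, dim probes of Psmb2 and Psmd5 gave -0.07 and -0.08.

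The 3 genes that were lower in spleen sit in different places of the complex. Psme3, which encodes the nuclear activator PA28 gamma, was 4.19-fold lower (-2.07 ± 0.10, limma adjusted p = 2.44e-23), at -2.12 within experiment I and -2.02 within experiment II. Psmd4, a ubiquitin receptor of the 19S base, gave -0.49 ± 0.05, at -0.50 and -0.49 within the experiments. Psmd6, a lid subunit, gave -0.51 ± 0.07, but its difference was -1.0 within experiment I and -0.03 within experiment II, its intensity in spleen lay below the array median, and a second probe gave 0.18 in the opposite direction. The experiments also differed for Psmb1, a beta ring subunit, whose spleen excess of 3.74 ± 0.12 within experiment I compares with 0.37 ± 0.11 within experiment II. The alpha ring genes Psma1 and Psma6, the 2 that did not pass the test, had probes below the array median in both tissues, as had the ATPase Psmc6, so that little can be read from them.

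**Figure D1:**
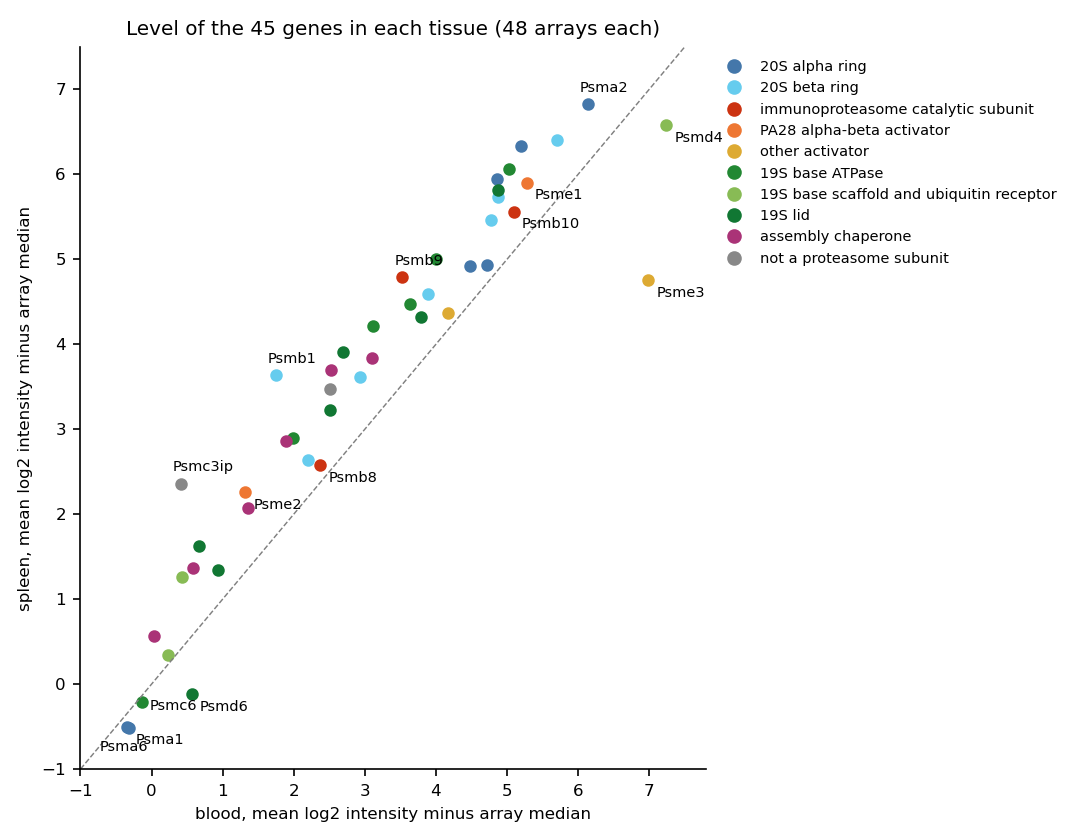
Mean log2 intensity of each of the 45 genes minus the array median, in blood (horizontal axis) and spleen (vertical axis), over 48 arrays of each tissue, coloured by role in the proteasome; the dashed line marks equal values. Most points lie above the line, and Psme3, Psmd4, Psmd6 and the dim Psma1, Psma6 and Psmc6 lie below it.

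The start regions of the 2 genes that passed the test for genotype in blood, Psmb9 and Psma7, are shown with those of the 2 inducible genes whose windows hold a searched motif. Psmb9 (chr17:34182030-34187330) and Psmb8 (chr17:34198195-34201454) are neighbours within the MHC region. The windows run from 250 bases before to 50 bases after the RefSeq start on GRCm38.p6 and were taken at chr17:34187281-34187580 (minus strand), chr17:34197945-34198244 (plus strand), chr14:55578244-55578543 (plus strand) and chr2:180042415-180042714 (minus strand). Capitals mark the interferon regulatory factor motif GAAANNGAA or the STAT motif TTCNNNGAA, on either strand.
Psmb9: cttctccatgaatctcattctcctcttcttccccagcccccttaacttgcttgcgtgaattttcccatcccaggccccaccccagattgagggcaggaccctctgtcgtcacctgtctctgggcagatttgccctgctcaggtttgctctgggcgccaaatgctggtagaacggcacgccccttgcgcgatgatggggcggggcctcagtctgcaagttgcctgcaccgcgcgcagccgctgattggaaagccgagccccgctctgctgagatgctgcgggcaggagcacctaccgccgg
Psmb8: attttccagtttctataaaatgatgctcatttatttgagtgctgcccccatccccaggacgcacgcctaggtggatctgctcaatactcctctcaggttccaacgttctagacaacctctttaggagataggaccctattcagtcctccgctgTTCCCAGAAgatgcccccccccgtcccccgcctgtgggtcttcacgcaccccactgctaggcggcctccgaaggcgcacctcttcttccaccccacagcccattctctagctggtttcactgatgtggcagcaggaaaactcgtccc
Psme1: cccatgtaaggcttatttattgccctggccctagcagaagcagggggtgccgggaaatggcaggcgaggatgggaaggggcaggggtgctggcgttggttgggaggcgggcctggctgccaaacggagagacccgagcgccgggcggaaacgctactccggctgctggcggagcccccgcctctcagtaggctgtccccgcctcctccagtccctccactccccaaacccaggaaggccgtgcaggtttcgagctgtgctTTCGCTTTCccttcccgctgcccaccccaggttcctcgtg
Psma7: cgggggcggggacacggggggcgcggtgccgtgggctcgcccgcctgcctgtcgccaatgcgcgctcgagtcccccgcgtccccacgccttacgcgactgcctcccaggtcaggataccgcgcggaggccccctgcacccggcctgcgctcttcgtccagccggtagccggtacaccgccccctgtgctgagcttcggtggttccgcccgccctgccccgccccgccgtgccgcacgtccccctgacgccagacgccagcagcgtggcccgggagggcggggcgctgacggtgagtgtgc
Psmb8 held the STAT motif and Psme1 the interferon regulatory factor motif on the minus strand, and Psmb9 and Psma7 held neither. Among the 43 windows of 39 member genes, 6 held GAAANNGAA and 3 held TTCNNNGAA, and no window held both, so the marked letters do not overlap. Besides Psme1, GAAANNGAA lay in windows of Psmb3, Psmb4, Psmc2, Psmd4 and Psmd9, which are not among the inducible genes. Besides Psmb8, TTCNNNGAA lay in those of Psmd2 and Psmg1, which are not among them either. The windows of the inducible genes Psmb10 and Psme2 held neither motif. The motifs occurred in 8.56% and 8.3% of all 32851 windows of the RefSeq table. A match in these letters is a description and shows no binding.

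In blood, mutated mice had higher Psmb9 intensities than wild type mice. At day 15 the 12 wild type mice ranged from 8.63 through a median of 9.41 to 10.07, and the 12 mutated mice from 9.35 through 10.09 to 10.91. At day 44 the wild type mice ranged from 8.96 through 9.51 to 10.20, and the mutated mice from 9.42 through 9.90 to 10.57. The ranges overlapped on both days, with 11 of 12 mutated mice above the wild type median at day 15 and 10 of 12 at day 44. Over both days the difference was 0.54 ± 0.10, or 1.45-fold (limma adjusted p = 0.00119). It was 0.58 ± 0.18 within experiment I and 0.50 ± 0.10 within experiment II. The difference passed the test within experiment II alone (limma adjusted p = 0.00298) and not within experiment I alone (limma adjusted p = 0.619).

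Psma7, an alpha ring subunit, was the only other member that passed the test in blood. Wild type mice ranged from 10.31 through 10.73 to 11.05 at day 15, and mutated mice from 10.71 through 11.06 to 11.36. At day 44 wild type mice ranged from 10.70 through 10.90 to 11.08, and mutated mice from 10.60 through 11.06 to 11.53. The groups overlapped, with 6 of 12 mutated mice above every wild type mouse at day 15 and 4 of 12 at day 44. The difference over both days was 0.23 ± 0.06 (limma adjusted p = 0.0223), and a second Psma7 probe gave 0.27 ± 0.06. It was 0.17 ± 0.09 within experiment I and 0.29 ± 0.06 within experiment II, where it passed the test by itself. Without an experiment term and with trended, robust eBayes Psma7 did not pass (limma adjusted p = 0.0803 and 0.0618).

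So 2 of the 45 genes were higher in mutated blood and 0 were lower, against 0.97% higher and 0.163% lower of all 16593 genes tested. The other 4 inducible genes did not pass the test over all genes. At day 15 Psmb10 ranged from 10.71 through 11.16 to 11.62 in wild type and from 10.57 through 11.57 to 12.00 in mutated blood, and Psmb8 from 7.31 through 8.38 to 9.02 and from 8.08 through 8.55 to 9.35. At day 44 Psmb10 ranged from 10.61 through 11.10 to 11.60 and from 10.95 through 11.36 to 12.11, and Psmb8 from 7.84 through 8.54 to 9.48 and from 8.45 through 8.81 to 9.36. The mutated medians were the higher ones for both genes on both days, and the groups overlapped widely. Over both days Psmb10, the inducible counterpart of Psmb7, gave 0.32 ± 0.10 (limma adjusted p = 0.105), Psmb8 gave 0.27 ± 0.12, Psme1 gave 0.23 ± 0.08 and Psme2 gave 0.18 ± 0.07. Second probes of Psmb10 and Psme1 gave 0.34 ± 0.09 and 0.23 ± 0.08. All 5 inducible genes had positive values with an unadjusted p under 0.05, and their median was 0.27. Of the other 38 subunits, chaperones and activators 28 were positive and 7 had such a p, with a median of 0.06. Over all genes 44.7% were positive and 8.81% had such a p in either direction, with a median of -0.01. The 3 constitutive catalytic genes Psmb5, Psmb6 and Psmb7 gave 0.15, 0.16 and 0.20 and did not pass the test. Within experiment II alone 8 members passed the test, Psmb9, Psmb8, Psmb10, Psme2, Psma4, Psma5, Psma7 and Psme4, and within experiment I alone 0 did, against 4.08% and 0.108% of all genes called in either direction. A direct test of experiment II minus experiment I found no member whose genotype difference in blood differed between them (limma, 0 of 45, against 0% higher and 0.0121% lower of all 16593 genes tested).

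**Figure D2:**
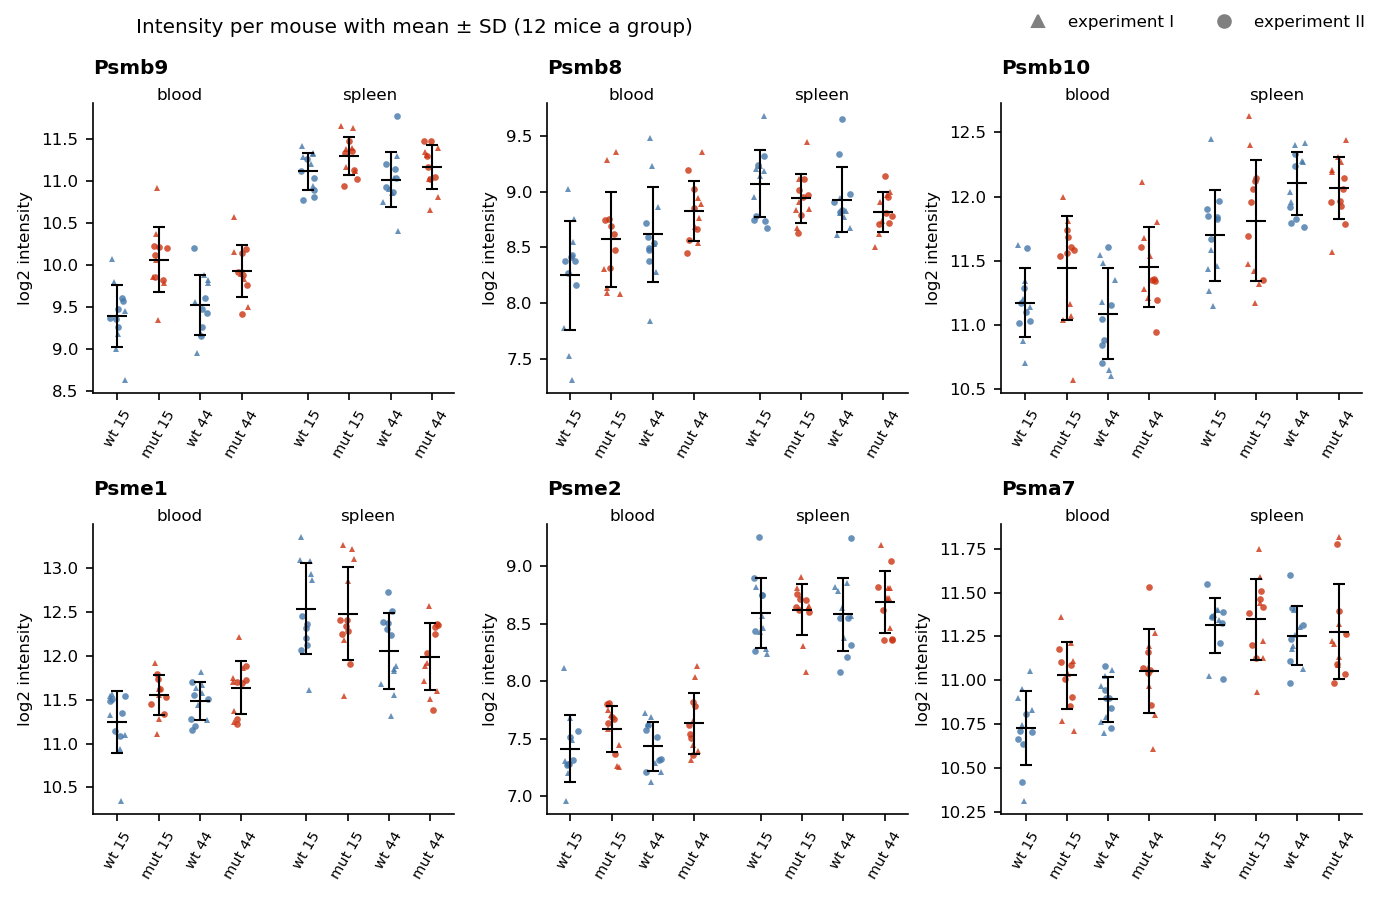
Log2 intensity of Psmb9, Psmb8, Psmb10, Psme1, Psme2 and Psma7 in each of the 96 arrays after removal of the experiment shift, by tissue, genotype (wt, blue; mut, red) and day (15, 44). Triangles are experiment I, circles experiment II, and bars give the mean ± SD of 12 mice; in blood the red groups centre higher than the blue groups of the same day, and all ranges overlap.

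Day by day the counts in blood were small. At day 15 Psmb9 passed the test (0.67 ± 0.14, limma adjusted p = 0.0286), as the only member, against 0.133% higher and 0.0121% lower of all 16593 genes tested. Psma4 and Psma7, both alpha ring genes, had the next smallest p, with 0.44 ± 0.11 (limma adjusted p = 0.0783) and 0.30 ± 0.08 (limma adjusted p = 0.16). At day 44 no member passed (limma, 0 of 45, with 7 at an unadjusted p under 0.05), against 0.681% higher and 0.753% lower of all genes. The smallest p there belonged to the chaperone gene Psmd5 (-0.18 ± 0.06), followed by Psmb9 (0.41 ± 0.14) and the chaperone gene Psmg2 (-0.25 ± 0.09), with limma adjusted p of 0.119, 0.169 and 0.175. The 2 probes of Psmd5 gave opposite signs. No member showed a genotype difference that changed between the days in blood (limma, 0 of 45, with 3 at an unadjusted p under 0.05, against 0% higher and 0.00603% lower of all genes). Psma4 came closest, with -0.47 ± 0.15 (limma adjusted p = 0.392). Within experiment II alone 9 members were higher in mutated blood at day 15, against 2.68% of all genes in either direction. There 6 members had a genotype difference that was more negative at day 44, against 4.16% of all genes, with Psma4 at -0.80 (limma adjusted p = 0.00116). Within experiment I alone no member passed either test.

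Genes of the pathway around the proteasome were counted on lists chosen with earlier results of these data known. In blood 0.97% of all 16593 genes were higher and 0.163% were lower in mutated mice. Of 15 genes for peptide presentation on MHC class I, 4 were higher in mutated blood and 0 lower. They were Nlrc5, the transactivator of MHC class I genes (0.60 ± 0.10), Irf1, a transcription factor of the interferon response (0.54 ± 0.12), the class I gene H2-Q7 (0.31 ± 0.08) and Tap1, a subunit of the peptide transporter (0.35 ± 0.09). Pomp, which helps the 20S core mature, was the 1 of 12 accessory factors that was higher (0.26 ± 0.07, limma adjusted p = 0.045). Of 20 genes for ubiquitin and delivery to the proteasome, 0 passed the test in blood (limma, 1 at an unadjusted p under 0.05). Of 13 regulators of proteasome transcription, Irf1 and Stat3 (0.32 ± 0.07) were higher. Of 30 interferon inducible genes 15 were higher and 0 lower, with Gbp2, an interferon induced GTPase, at 1.43 ± 0.19 and Oasl2, an antiviral oligoadenylate synthetase-like gene, at 1.45 ± 0.19.

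Markers of several blood cell types moved with the genotype as well. Of 12 mature neutrophil markers 5 were higher and of 13 granulocyte precursor markers 6 were higher, while 2 of 13 B cell and 1 of 16 T cell markers were lower. 2 of 12 monocyte and macrophage markers were higher. Over all genes 0.97% were higher and 0.163% were lower. The summed intensity of the neutrophil markers ranged from 6965 to 31420 in wild type and from 13390 to 59250 in mutated blood at day 15, and from 7963 to 33680 and 24360 to 50010 at day 44. The monocyte and macrophage sum ranged from 6477 to 30330 in wild type and 12390 to 37740 in mutated blood at day 15, and from 11680 to 39890 and 14630 to 45090 at day 44. No marker has an intensity of 0 on this platform, whose lowest blood value was 46.2. The part of these cells in the differences of Psmb9 and Psma7 was not tested.

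In the spleen 7 of the 45 genes were higher in mutated spleens and 0 were lower, against 5.66% higher and 4.88% lower of all 16593 genes tested, and the median was 0.08 over the members and -0.01 over all genes. None of the 14 genes of the alpha and beta rings (7 and 7) and none of the 5 inducible genes passed the test (limma, with 3 ring genes and 1 inducible gene at an unadjusted p under 0.05). The 7 were 2 ATPases, 1 base scaffold, 2 assembly chaperones, 1 activator and Psmc3ip.

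Psmc3ip (chr11:101092141-101095435), whose product is a cofactor of homologous recombination and no proteasome subunit, differed most. Wild type spleens ranged from 8.09 through 8.32 to 8.99 at day 15, and mutated spleens from 8.46 through 8.84 to 9.34. At day 44 wild type spleens ranged from 7.87 through 8.52 to 9.24, and mutated spleens from 8.66 through 9.0 to 9.54. All 12 mutated mice lay above the wild type median on both days, and the ranges overlapped. The difference was 0.45 ± 0.09, or 1.36-fold (limma adjusted p = 2.78e-04), at 0.49 ± 0.13 within experiment I and 0.40 ± 0.11 within experiment II.

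Psmd9, a chaperone that helps assemble the ATPase ring, was the next. Its mean level in spleen was low, 0.56 above the array median. Wild type spleens ranged from 6.39 through 6.83 to 7.15 at day 15, and mutated spleens from 6.66 through 7.03 to 7.33. At day 44 wild type spleens ranged from 6.50 through 6.70 to 7.08, and mutated spleens from 6.66 through 7.17 to 7.43. The groups overlapped less at day 44, where 8 of 12 mutated mice lay above every wild type mouse, than at day 15, where 2 of 12 did, but the difference between the days was not called (0.14 ± 0.12). Over both days the difference was 0.26 ± 0.06 (limma adjusted p = 0.00191), and the second, dimmer probe gave 0.12 ± 0.04.

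The other five were smaller. Psmc2 and Psmc3, ATPases of the 19S base, were higher by 0.19 ± 0.05 and 0.17 ± 0.05, with limma adjusted p of 0.0103 and 0.0368. Psmd1, the scaffold that carries the base, was higher by 0.23 ± 0.07 (limma adjusted p = 0.0159). Psmg2, a chaperone of the alpha ring, was higher by 0.18 ± 0.05 (limma adjusted p = 0.015), and at day 44 all 12 mutated spleens lay above the wild type median of 9.97. Psme4, the activator PA200, was higher by 0.14 ± 0.04 (limma adjusted p = 0.0398), while its second probe, near background, gave -0.04 ± 0.05. Without the 5 arrays with pancreatic transcripts 4 members passed the test, Psmc3ip, Psmd9, Psmg2 and Psmc2, while Psmd1, Psmc3 and Psme4 had values of 0.19, 0.16 and 0.12, against 8.51% of all genes called in either direction. Within experiment I alone Psmc3ip was the 1 that passed, against 3.5% of all genes. Of the 45 members 35, among them all 7 of these genes, had the same sign within both experiments. No member had a genotype difference in spleen that differed between the experiments (limma, 0 of 45, against 0% higher and 0% lower of all 16593 genes tested).

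The 5 inducible genes gave small values of both signs in spleen: Psmb9 0.17 ± 0.08 (limma adjusted p = 0.17), Psme2 0.07 ± 0.08, Psmb10 0.04 ± 0.10, Psme1 -0.06 ± 0.13 and Psmb8 -0.12 ± 0.07. The constitutive catalytic genes lay near 0, with Psmb5 at 0.01 ± 0.07, Psmb6 at -0.02 ± 0.06 and Psmb7 at 0.12 ± 0.09. At day 15 Psmc3ip passed the test (0.45 ± 0.12, limma adjusted p = 0.0365), against 1.93% higher and 0.542% lower of all genes. At day 44 Psmd9 (0.34 ± 0.09, limma adjusted p = 0.0123) and Psmc3ip (0.44 ± 0.12, limma adjusted p = 0.0245) passed, against 3.09% higher and 2.1% lower of all genes. Without the arrays with pancreatic transcripts 0 members passed at day 15, where Psmc3ip kept a value of 0.45 (limma adjusted p = 0.137), against 0.0121% of all genes called in either direction. At day 44 Psmd9 (0.34) and Psmg2 (0.30) passed without them and Psmc3ip (0.44, limma adjusted p = 0.0613) did not, against 4.09% of all genes. No member changed its genotype difference between the days in spleen (limma, 0 of 45, with 0 at an unadjusted p under 0.05, against 0% higher and 0% lower of all genes).

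Among the pathway lists in spleen, 0 of 15 MHC class I presentation genes passed the test for genotype (limma, 2 at an unadjusted p under 0.05). Over all 16593 genes 5.66% were higher and 4.88% were lower in mutated spleens. Of 12 accessory factors, Fbxo7, an F-box protein of the ubiquitin system, and Pithd1 were higher, by 0.39 ± 0.09 and 0.20 ± 0.06. Of 20 ubiquitin and delivery genes, Faf1, a partner of the segregase that hands substrates to the proteasome, was higher (0.25 ± 0.08). Of 13 transcription regulators Mafg, a small Maf protein, was higher (0.31 ± 0.10), and Nfe2l1, the factor that raises proteasome genes when proteasome activity drops, was lower (-0.16 ± 0.05, limma adjusted p = 0.0462). Single genes of lists of 20 or 13 lie near the shares over all genes. Of 30 interferon inducible genes 11 were higher and 1 was lower. Cell type markers moved with the genotype in spleen. Of 25 cell cycle genes 21 were higher, of 20 erythroid genes 15 and of 13 granulocyte precursor genes 12, and of 16 T cell genes 14 and of 13 B cell genes 10 were lower. Of 12 mature neutrophil genes 9 were higher, and so were 6 of 8 platelet and megakaryocyte genes. The summed cell cycle intensity ranged from 10180 to 30930 in wild type and from 28210 to 36260 in mutated spleens at day 44, and from 12430 to 30050 and 20520 to 45450 at day 15. The erythroid sum ranged from 23140 to 72930 and 55150 to 72290 at day 44, and from 19860 to 67750 and 41360 to 81370 at day 15, in the same order. The T cell sum ranged from 7977 to 14950 and 5068 to 7787 at day 44, and from 9764 to 14370 and 6641 to 11840 at day 15. The part of these cells in the differences of the 7 genes was not tested.

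**Figure D3:**
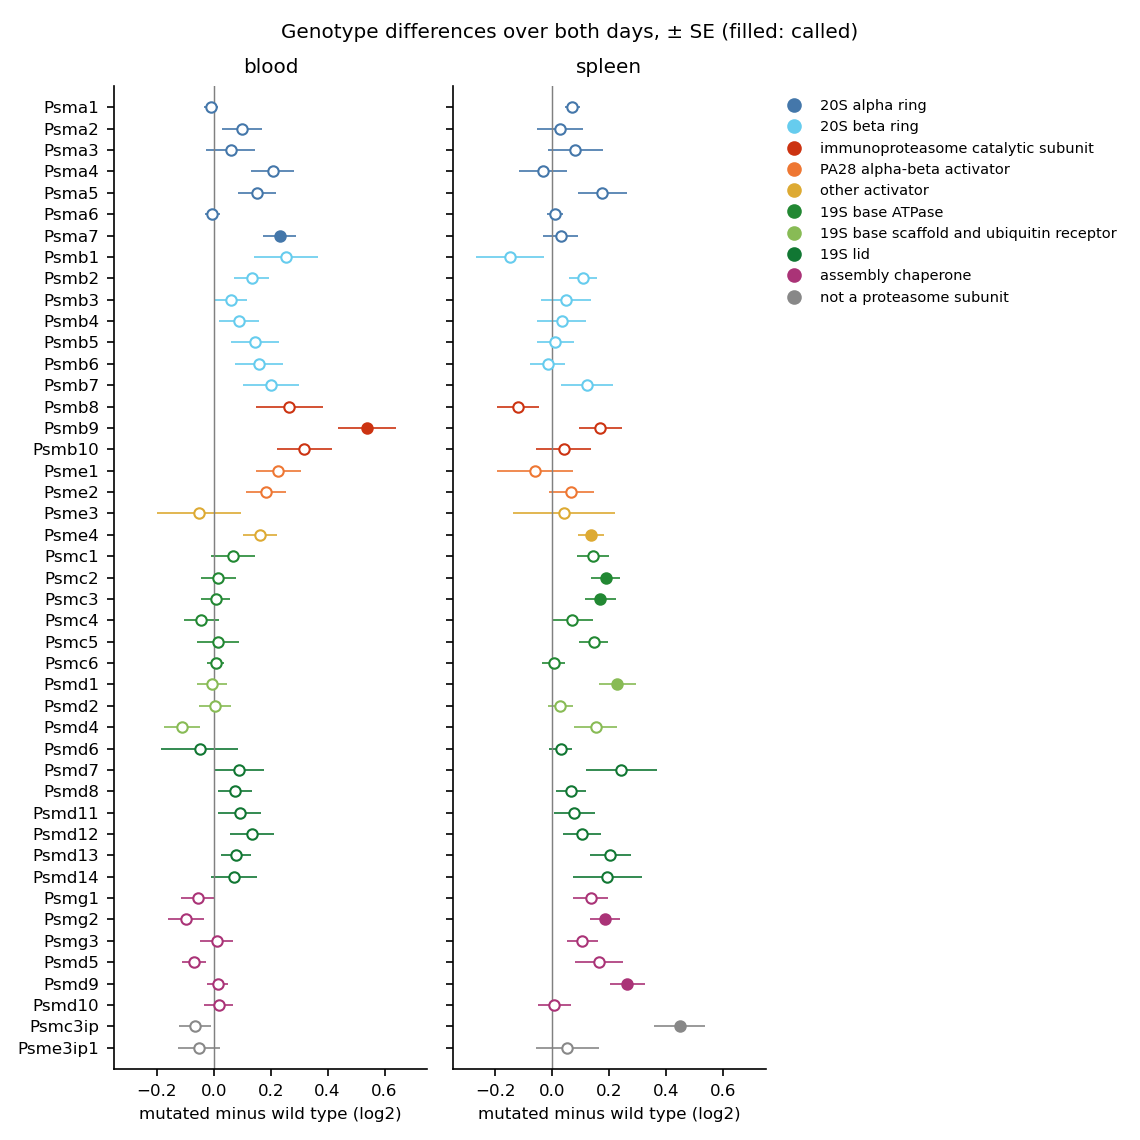
Difference of mutated minus wild type (log2, over both days, ± SE) for each of the 45 genes in blood (left) and spleen (right), ordered and coloured by role; filled points passed the test over all genes. In blood the filled points are Psmb9 and Psma7, and in spleen they are Psme4, Psmc2, Psmc3, Psmd1, Psmg2, Psmd9 and Psmc3ip.

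Whether the genotype difference itself differed between the tissues was tested on the spleen minus blood difference of each mouse. 3 members had a more positive genotype difference in spleen and 1 in blood, against 2.87% and 1.24% of all 16593 genes tested. Psmb9 differed by -0.37 ± 0.11 (limma adjusted p = 0.0398), from 0.17 in spleen and 0.54 in blood. Psmc3ip differed by 0.51 ± 0.10 (limma adjusted p = 8.51e-04), from 0.45 in spleen and -0.07 in blood. Psmg2 (0.28 ± 0.07, limma adjusted p = 0.0183) and Psmd9 (0.25 ± 0.07, limma adjusted p = 0.0315) were the others. The blood intensity of Psmd9 lay at the array median, and that of Psmc3ip lay only 0.42 above it. In spleen Psmc3ip lay 2.36 and Psmd9 0.56 above the array median. Psmb8 gave -0.39 ± 0.14 and did not pass the test (limma adjusted p = 0.145). Psmb10 (-0.28 ± 0.12), Psme1 (-0.29 ± 0.15) and Psme2 (-0.12 ± 0.10) were also negative without passing it. With all 96 arrays quantile normalised together Psmb9 (-0.31, limma adjusted p = 0.115) and Psmd9 (0.19, limma adjusted p = 0.157) did not pass the test, and Psmc3ip and Psmg2 did, against 3.51% of all genes in either direction. Without the arrays with pancreatic transcripts Psmb9 did not pass either (-0.33, limma adjusted p = 0.0872), while the other 3 members did, against 3.34% of all genes. Of the pathway lists, 4 of 15 MHC class I presentation genes, Nlrc5, Tapbpl, Irf1 and H2-Q7, had a more positive genotype difference in blood (-0.45, -0.40, -0.47 and -0.33), as had Pomp (-0.24 ± 0.07) and Stat3 (-0.35 ± 0.09). In the same test 20 of 25 cell cycle and 12 of 20 erythroid genes were more positive in spleen, and so were 6 of 13 granulocyte precursor genes, while 8 of 30 interferon inducible, 5 of 16 T cell and 3 of 12 monocyte and macrophage genes were more positive in blood. Their part in the differences of the 4 members was not tested.

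The ratio of an inducible subunit to the constitutive subunit it replaces was formed within each array, and only its change between groups is read, since the scale of a ratio between probes is arbitrary. 12 differences, 3 pairs in 2 tissues for genotype and for day, were tested by two-sided permutation with 100000 resamples within experiment, with Benjamini-Hochberg adjustment over the 12. In blood Psmb9 over Psmb6 was higher in mutated mice by 0.38 ± 0.14 (permutation p = 0.0077, adjusted p = 0.0318). Its medians at day 15 were -0.39 for wild type and -0.14 for mutated blood, and those at day 44 were -0.48 and -0.19, and the ranges overlapped. In spleen the same ratio differed by 0.18 ± 0.08 (permutation p = 0.0213, adjusted p = 0.0639). For Psmb8 over Psmb5 and Psmb10 over Psmb7 the genotype differences in blood were 0.12 ± 0.17 in both cases, and in spleen -0.13 ± 0.08 and -0.08 ± 0.17, with adjusted permutation p of 0.228 or more. Within experiment I alone and experiment II alone the blood difference of Psmb9 over Psmb6 was 0.46 and 0.30, with adjusted permutation p of 0.241 and 0.14.

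Between the days the ratio moved in spleen for 2 pairs, in opposite directions. Psmb8 over Psmb5 was lower at day 44 than at day 15, with a difference of -0.25 ± 0.08 (permutation p = 0.00795, adjusted p = 0.0318). Psmb10 over Psmb7 was higher at day 44 by 0.58 ± 0.17 (permutation p = 0.00198, adjusted p = 0.0238). Neither passed without the arrays with pancreatic transcripts (-0.26 and 0.51, adjusted permutation p = 0.0814 for both), and within experiment II alone they were -0.01 and 0.34. The second Psmb10 probe fell by 0.37 where the first rose by 0.33, and with the mean of all probes the Psmb10 ratio moved by 0.22 (adjusted permutation p = 0.213). In blood no ratio passed the test between the days, with adjusted permutation p of 0.213 or more, and in spleen Psmb9 over Psmb6 gave -0.01 ± 0.08.

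**Figure D4:**
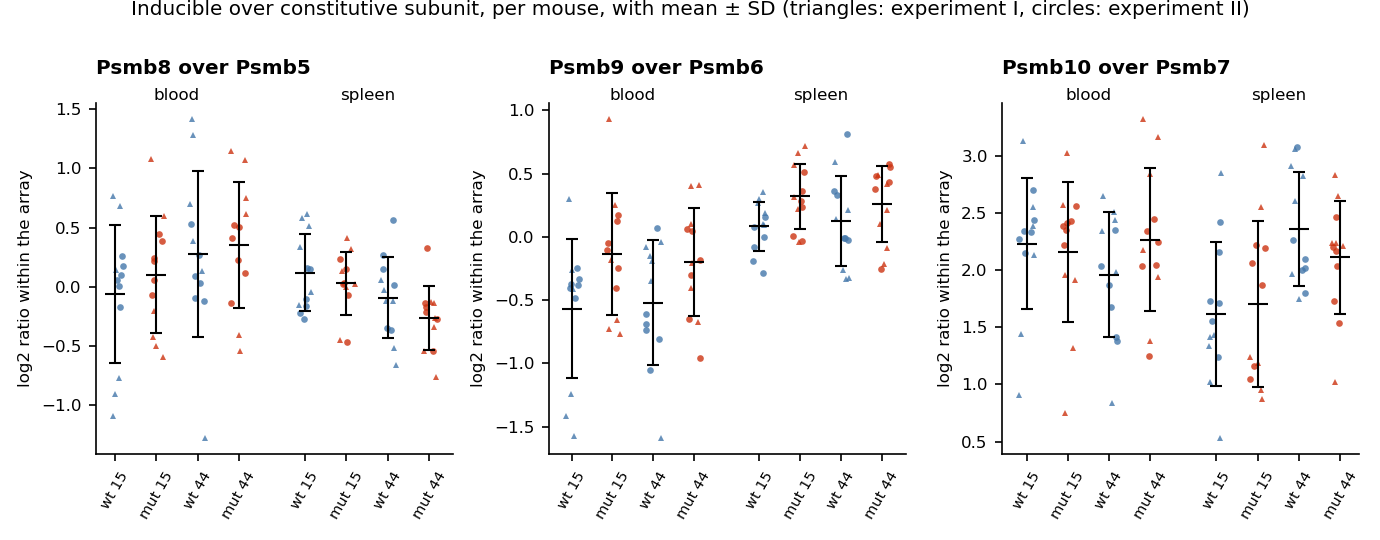
Log2 ratio within each array of Psmb8 over Psmb5, Psmb9 over Psmb6 and Psmb10 over Psmb7, by tissue, genotype (wt, blue; mut, red) and day, after removal of the experiment shift, with mean ± SD of 12 mice; triangles are experiment I and circles experiment II. In blood the mutated groups of Psmb9 over Psmb6 centre at -0.14 and -0.20 and the wild type groups at -0.57 and -0.52.

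Between day 15 and day 44, 18 of the 45 genes changed in the spleen over both genotypes. 13 members (28.9%) rose and 5 (11.1%) fell, against 11.5% higher and 11.4% lower of all 16593 genes tested. Among the risers were 3 of the 6 ATPases, Psmc2, Psmc4 and Psmc5, and 4 of the 7 lid genes, Psmd7, Psmd8, Psmd13 and Psmd14. Of the 3 scaffold and ubiquitin receptor genes of the 19S base 1 rose, the receptor Psmd4. The others were 2 of the 7 alpha ring genes, Psma3 and Psma5, the chaperone gene Psmd5, the inducible gene Psmb10 and Psme3ip1. Those that fell were Psme3, Psme1, the beta ring genes Psmb4 and Psmb7, and the alpha ring gene Psma4. No change passed the test within experiment II alone, and most did not without the arrays with pancreatic transcripts, as given below.

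Psme3 fell the most. At day 15 wild type spleens ranged from 10.29 through 11.53 to 12.29 and mutated spleens from 10.32 through 11.51 to 12.65. At day 44 they ranged from 10.16 through 10.67 to 11.56 and from 9.54 through 10.73 to 11.63. The days overlapped widely in both genotypes. The change was -0.80 ± 0.18 (limma adjusted p = 0.00176), and the residual spread of this gene, 0.63 in spleen, was the widest of all members. For Psme1, the PA28 alpha subunit, wild type spleens ranged from 11.61 through 12.41 to 13.35 at day 15 and from 11.32 through 12.06 to 12.72 at day 44. Its change was -0.48 ± 0.13 (limma adjusted p = 0.00715), and its second probe gave -0.48 ± 0.13 as well. Psmb4 and Psma4, with -0.27 ± 0.09 and -0.26 ± 0.08, and Psmb7, with -0.25 ± 0.09, fell less.

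Among the risers Psmd7, a lid subunit, changed most. Wild type spleens ranged from 9.16 through 10.02 to 10.80 at day 15 and from 9.95 through 10.44 to 10.94 at day 44. Mutated spleens ranged from 9.36 through 10.21 to 10.98 at day 15 and from 10.18 through 10.62 to 11.13 at day 44. The lower ends moved up, and the ranges overlapped. The change was 0.53 ± 0.12 (limma adjusted p = 0.00248). Psmc2 had the smallest p of the risers, with 0.23 ± 0.05 (limma adjusted p = 0.00168). Psme3ip1, whose product binds PA28 gamma, rose by 0.47 ± 0.11, Psma3 by 0.35 ± 0.10, Psmb10 by 0.33 ± 0.10, Psmd13 by 0.27 ± 0.07, and Psmc4 by 0.24 ± 0.07. Psmd5 (0.26 ± 0.08), Psmd4 (0.25 ± 0.08) and Psmd8 (0.17 ± 0.05) rose as well. For Psmb10 and Psmc5 a second probe moved in the opposite direction, by -0.37 and -0.17 against 0.33 and 0.15.

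The changes between the days were not alike in the 2 experiments. Within experiment I alone 22 members passed the test, against 30.8% of all genes in either direction, and within experiment II alone 0 did, against 0.00603%. The difference between the experiments, tested directly as an addition made after seeing those counts, passed for 16 of the 45 genes: 6 had the more positive change in experiment II and 10 in experiment I, against 7.74% and 7.07% of all 16593 genes tested. Psme1 changed by -0.98 in experiment I and 0.01 in experiment II, a gap of 0.99 ± 0.22 (limma adjusted p = 0.00332). Psmd7 changed by 0.97 and 0.08, a gap of -0.89 ± 0.21 (limma adjusted p = 0.00529). Psme3 changed by -1.29 and -0.31, a gap of 0.97 ± 0.33 (limma adjusted p = 0.0409). Psmb8 and Psmb9 moved from -0.32 and -0.34 in experiment I to 0.06 and 0.11 in experiment II, and both gaps passed the test. The arrays with pancreatic transcripts all belong to experiment I. Without them 4 members passed the test between the days, Psmc2, Psmd7, Psme3ip1 and Psme3, against 7.44% of all genes in either direction. Without them 3 passed the test between the experiments, Psma2, Psmb4 and Psme1, against 3.43% of all genes, while all 16 kept the sign of their gap.

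**Figure D5:**
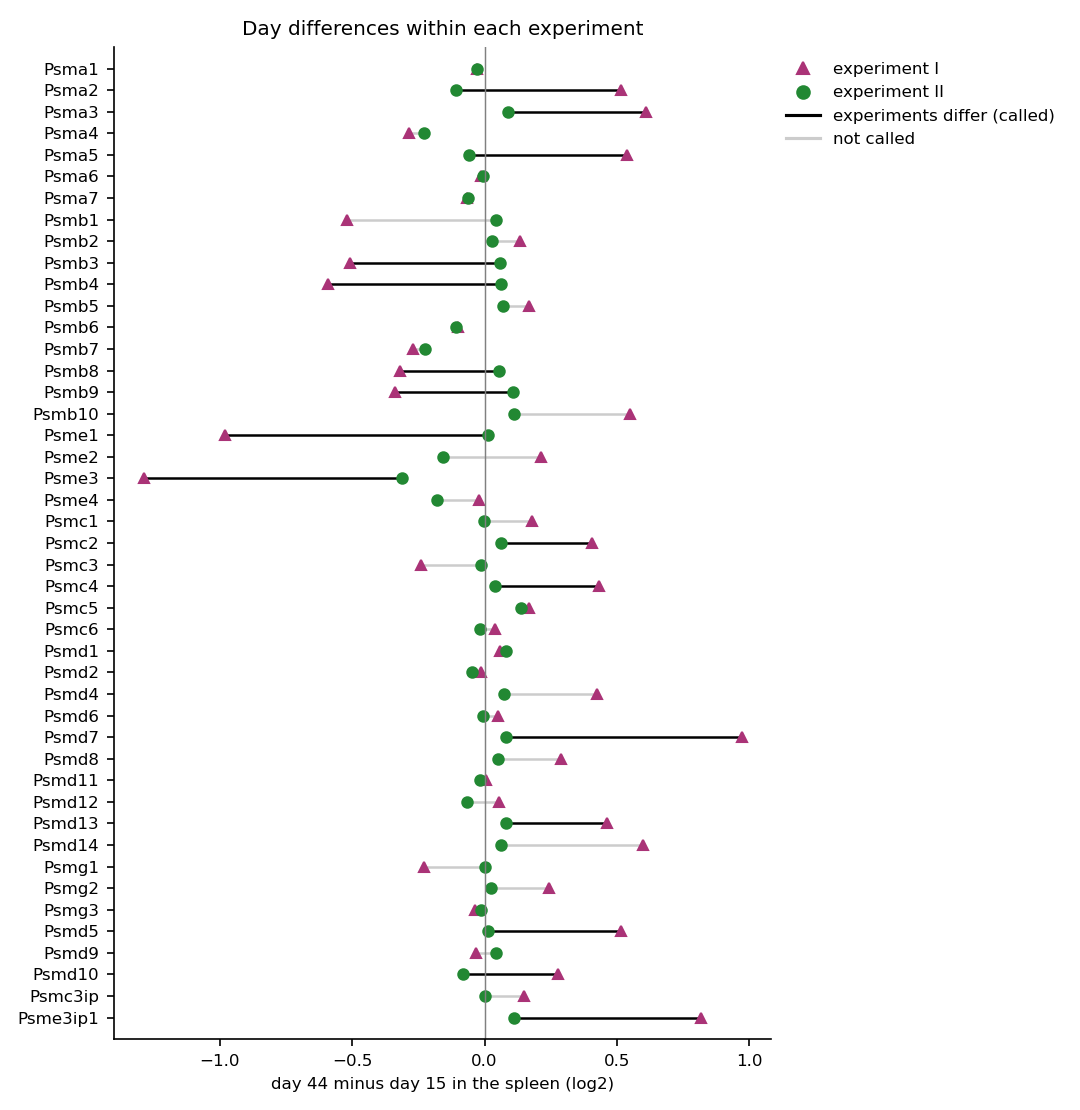
Difference of day 44 minus day 15 in the spleen (log2, over both genotypes) for each of the 45 genes within experiment I (triangles) and experiment II (circles); black lines join the values of genes for which the 2 experiments differed by the test over all genes, and grey lines those for which they were not called different. The circles run from -0.31 for Psme3 to 0.14 for Psmc5 and the triangles from -1.29 for Psme3 to 0.97 for Psmd7.

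Other genes of the pathway also changed between the days in spleen, in the fit over both experiments. There 11.5% of all 16593 genes were higher and 11.4% were lower. Within experiment I alone 30.8% of all genes passed in either direction, and within experiment II alone 0.00603% did. The lists were not counted within each experiment. Of 15 MHC class I presentation genes 6 fell and 1 rose, with the class I heavy chain genes H2-K1, H2-Q7 and H2-T23 at -0.31 ± 0.06, -0.35 ± 0.08 and -0.40 ± 0.09 and Tap1 at -0.35 ± 0.09. The 1 that rose was Tap2, the other transporter subunit (0.36 ± 0.12). Of 30 interferon inducible genes 15 fell and 0 rose. Of 12 accessory factors 4 rose, among them Sem1, a small lid subunit (0.42 ± 0.11), and Ecpas, a proteasome scaffold (0.44 ± 0.11), and Klhdc3 fell (-0.35 ± 0.10). Of 20 ubiquitin and delivery genes 6 rose and 4 fell, with the shuttle gene Ubqln1 at 0.44 ± 0.09 and its relative Ubqln4 at -0.40 ± 0.09. Of 13 regulators 2 rose, Mafg (0.50 ± 0.10) and Keap1 (0.17 ± 0.06), and Irf8 fell (-0.29 ± 0.10). Of 13 B cell markers 10 fell and of 25 cell cycle genes 10 rose. The summed B cell intensity ranged from 20960 to 48550 at day 15 and 17510 to 29890 at day 44 in wild type spleens, and from 13780 to 39490 and 11590 to 19440 in mutated spleens. The part of these cells in the changes was not tested.

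In blood no member passed the test between the days (limma, 0 of 45, with 8 at an unadjusted p under 0.05), against 0.0603% higher and 0.0181% lower of all 16593 genes tested. The smallest p belonged to the ATPase genes Psmc2 (-0.22 ± 0.06, limma adjusted p = 0.148) and Psmc4 (-0.20 ± 0.06, limma adjusted p = 0.203), followed by Psmb8 (0.31 ± 0.12, limma adjusted p = 0.347). All 6 ATPase genes had negative values, while 23 of the 45 members and 52.8% of all genes had positive ones. The 3 scaffold and ubiquitin receptor genes of the 19S base were negative too (-0.078 to -1e-04). None of the 6 ATPase genes passed the test, and the probe of Psmc6 lay below the array median. Within experiment II alone 5 members passed, with Psmb3 and Psmg3 higher (0.27 and 0.17) and Psmc2, Psmc4 and Psmg2 lower (-0.22, -0.16 and -0.25), against 4.8% of all genes in either direction. The lid gene Psmd8 was the 1 member whose change between the days differed between the experiments in blood (-0.46 ± 0.10, limma adjusted p = 0.0435), against 0.0422% higher and 0.108% lower of all genes.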

How the data were processed

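Per the labels, total RNA was labelled after globin removal and hybridised to Illumina bead arrays, and the submitters' processing notes name limma. The deposited table gives 1 linear intensity for each of 25697 probes in each of 96 arrays, with no detection p. From the values, the authors' intensities are quantile normalised within each tissue, with array medians of 82.2 in spleen and 73.4 in blood, and no other step of the authors is given in the sources used here. The number of arrays limits the precision.

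The intensities were taken to log2. 23978 probes had 1 gene symbol and 1719 none, and 23962 were updated to RefSeq by Entrez identifier. Each of 16593 genes was represented by its probe with the highest mean. Within a tissue, limma 3.58.1 (R 4.3.3) fitted the 4 groups of genotype and day with an experiment term on 48 arrays. Differences between tissues were fitted on the spleen minus blood difference of each mouse, since the sample titles give both arrays of a mouse the same number. Mice were separate animals. The members and lists were chosen with earlier results of these data known.

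Named genes were the inducible and constitutive catalytic genes, PA28, members that are no subunit, up to 10 members a direction that passed the test, or the 3 of smallest p if fewer did, and up to 4 of each pathway list. A few further members are named to complete a count of members or to show probes or experiments that differ, after their values were seen. Alternatives were the mean of all probes, genes above the median level, normexp (offset 50), quantile normalisation over all arrays, no experiment term, each experiment alone, eBayes with trend, no spleen arrays with pancreatic transcripts, and no pairing of mice. Experiment by group terms were added after seeing the data. Pancreatic arrays were spleen arrays with a mean log2 level of 20 pancreatic genes over 1 above the median spleen array. The model and the permutation test were tested on simulated data. Promoter windows are from RefSeq (GRCm38.p6).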

Additional observations from a re-analysis of the deposited data

Results flagged for a closer look

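The genotype difference differed between spleen and blood of the same mice for 4 genes by limma's test of the difference itself. Over all 16593 genes 2.87% were more positive in spleen and 1.24% in blood. Spleen minus blood was -0.37 for Psmb9, 0.51 for Psmc3ip, 0.25 for Psmd9 and 0.28 for Psmg2. With all arrays quantile normalised together Psmb9 and Psmd9 did not pass, and without the arrays with pancreatic transcripts Psmb9 did not. The change from day 15 to day 44 in spleen differed between the experiments for 16 genes, given here as experiment II minus experiment I. Over all genes 7.74% were higher and 7.07% lower in this test. Without the arrays with pancreatic transcripts 3 of the 16 passed, Psma2, Psmb4 and Psme1, against 3.43% of all genes in either direction. The core genes gave -0.63 for Psma2, -0.52 for Psma3, -0.60 for Psma5, 0.57 for Psmb3 and 0.65 for Psmb4. The inducible genes and activators gave 0.38 for Psmb8, 0.44 for Psmb9, 0.99 for Psme1 and 0.97 for Psme3. The 19S and chaperone genes gave -0.34 for Psmc2, -0.39 for Psmc4, -0.38 for Psmd13, -0.89 for Psmd7, -0.50 for Psmd5 and -0.36 for Psmd10. Psme3ip1, which is no subunit, gave -0.71. In blood Psmd8 gave -0.46 in the same comparison, against 0.0422% higher and 0.108% lower of all genes. Groups of 12 mice were not tested for single arrays that stand apart.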

How the results depend on the processing

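The deposited intensities carry no detection p, so signal over background is unknown for dim genes such as Psma1, Psma6, Psmc6 and Psmd6. Psmd9 and Psmd2 were dim as well, at 0.56 and 0.34 above the array median in spleen and 0.03 and 0.23 in blood. The count of 43 members that differed between spleen and blood lay between 36 (29 higher, 7 lower, quantile normalisation over all arrays) and 43 under the alternatives, and experiment II alone gave 41 (39 higher, 2 lower). Normexp correction kept all 35 calls of single genes. The share of all genes called is given above for some of these settings and was not set beside the other counts. Those counts alone do not show whether members differ from genes at large. Without an experiment term the counts of members were 1 for spleen genotype, 0 at day 15 and 0 at day 44, 9 for spleen day, 1 for blood genotype, 0 at day 15 and 1 for genotype by tissue. Experiment I alone gave 1, 0 and 0 for spleen genotype over both days, day 15 and day 44, 0 for blood genotype, 0 at day 15 and 0 for genotype by tissue. Experiment II alone gave 0 for spleen genotype at day 15, 0 for spleen day, 8 for blood genotype, 9 at day 15, 1 at day 44, 5 for blood day and 6 for blood genotype by day. Without the spleen arrays with pancreatic transcripts 4 members were called for spleen genotype, 0 at day 15 and 4 for spleen day. Trended, robust eBayes gave 1 for blood genotype, genes above the median level 2 for blood genotype at day 15, and quantile normalisation over all arrays 2 for genotype by tissue. With no replicate block, the mouse ignored, 3 of the 4 genes of genotype by tissue passed (Psmb9 did not, limma adjusted p = 0.101), and the count for spleen against blood was again 43.

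In spleen between the days, within experiment II alone, Psma5 (-0.058), Psmb4 (0.0618) and Psme1 (0.0112) turned direction, and with the mean of all probes so did Psmb10 (-0.0213) and Psmc5 (-0.0078), whose 2 probes disagree. Psmb8 over Psmb5 between the days in spleen was -0.0146 within experiment II alone and -0.26 without the arrays with pancreatic transcripts. Psmb9 over Psmb6 gave 0.46 and 0.30 for genotype in blood within experiments I and II alone, 0.21 between the days in spleen within experiment II and 0.25 in blood within experiment I. Psmb10 over Psmb7 between the days in spleen gave 0.82 and 0.34 within experiments I and II alone, 0.22 with the mean of probes and 0.51 without the arrays with pancreatic transcripts. In blood it gave 0.29, -0.46 and 0.0284 within experiment I, within experiment II and with the mean of probes. Single experiments hold fewer arrays, and for the other settings the cause was not tested. With experiment by group terms, added after seeing the data, 8 members were called for spleen genotype, 20 for spleen day and 2 for blood genotype. The share of all genes called under those terms is not given here, so these counts are not read against it.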
